A study of Mus musculus with 6 samples.

Results

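The genes described here copy DNA or supply its building blocks: 51 genes for origin licensing, helicase activation, the sliding clamp, the polymerases, lagging-strand joining, deoxynucleotide synthesis, entry into S phase and the copying of chromatin and DNA methylation. They were listed by symbol among the 29616 genes of the deposited table, and all 51 had a row. The list was drawn up because proliferation genes had already been seen to be higher after dexamethasone in these same libraries, so the difference between the groups is what chose it, and the differences below are given as a description of the members without a test.

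RNA was sequenced from bone cells of C57BL/6 mice that were either controls or given dexamethasone, a synthetic glucocorticoid, with 3 libraries in each group described as biological replicates. By the study's methods these were cells positive for Osteocalcin, a protein of mature osteoblasts, sorted from bones after the marrow had been removed. Mice of the treated group received 0.08 µg/g dexamethasone daily for 4 weeks from 8 weeks of age. Controls were listed with the same starting age and duration. The labels do not give the vehicle of the controls, the sex or whether a library came from 1 mouse or from a pool. The paper names saline for the controls of its bone imaging but names no vehicle for the sequenced cells. In bulk RNA a larger share of cells in S phase and more of a transcript per cell cannot be told apart.

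Each library held between 72596611 and 89910728 reads assigned to genes. Read against marker lists, 7 of 9 osteoblast genes fell with dexamethasone, among them Runx2 (log2 fold change -1.75), Sp7 (-1.86) and Col1a1 (-1.88), while Spp1 (5.25) and Dmp1 (7.16) rose. The Osteocalcin gene Bglap had 104 to 139 reads in control libraries and 10 to 13 in dexamethasone libraries. Its paralog Bglap2, in the same list, had 340 to 369 and 28 to 31. The summed level of the osteoblast list was 984659 to 1052443 normalized counts in controls and 1514277 to 1587003 with dexamethasone, nearly all of it Col1a1 and Spp1. Lists for cells of marrow and vessels had small sums next to that. The summed level of 10 blood cell genes was 126 to 166 normalized counts in controls and 813 to 871 with dexamethasone, where Cd53 (4.11) and Itgb2 (3.20) rose, Laptm5 (-1.49) and Coro1a (-1.77) fell, and the defining marker Ptprc had 2 to 5 reads in every library. Erythroid genes summed to 38.2 to 42.2 and 30.5 to 52.3, lymphocyte genes to 6.85 to 9.18 and 1.91 to 6.98, endothelial genes to 384 to 415 and 465 to 509, and neutrophil and macrophage genes to 1887 to 1895 and 1658 to 1926. Among these, Esam (1.20) and Cd68 (1.78) rose and Lyz2 (-1.50) fell past the cut-off. Chondrocyte genes summed to 5955 to 6412 and 22115 to 24965, with Sox9 (1.92) and Col2a1 (1.90) higher, Comp (-1.23) lower, Acan at 6 reads or fewer and Matn3 at 12 or fewer. The part of these shifts in the values below was not tested.

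Chromosomes are copied once per cell cycle. In G1, the origin recognition complex with Cdc6 and Cdt1 loads rings of the Mcm helicase onto DNA, and at the start of S phase cyclin E with Cdk2 and other kinases drives Cdc45 and the GINS complex onto those rings to open the double strand. Primase and the polymerases then copy each strand while Pcna, loaded by the Rfc clamp loader, holds them on DNA, and ribonucleotide reductase and thymidylate synthase provide the deoxynucleotides. Transcription of most of these genes is switched on late in G1 by activator E2F factors, which are held in check by the retinoblastoma protein until cyclin-dependent kinases release them.

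Because E2F factors are known to act at the promoters of this class of gene, the letters upstream of the starts are shown first. RefSeq promoter windows, which run from 250 bases before to 50 after a start, were found for 43 of the 51 members. The E2F core was searched as TTCCCGC, as its variant TTGGCGC, as the form TTGCCGC and as the form TTCGCGC, on both strands, overlapping matches included, and 29 of the 43 genes held at least 1. The stretches below are the 120 bases before a start on the gene's strand, 5′ to 3′, in build GRCm38.p6, with each match in capitals. They were picked from the different roles and include E2f8 and Rpa3, the members with the largest and the smallest fold change.
Mcm6 (chr1:128359706-128359825, minus strand): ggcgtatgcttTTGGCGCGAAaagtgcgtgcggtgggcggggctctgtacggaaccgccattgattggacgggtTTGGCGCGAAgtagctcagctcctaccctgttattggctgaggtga
Orc1 (chr4:108579334-108579453, plus strand): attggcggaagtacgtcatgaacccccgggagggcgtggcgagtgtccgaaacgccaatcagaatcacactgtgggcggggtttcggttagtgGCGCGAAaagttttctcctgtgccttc
Prim1 (chr10:128015095-128015214, plus strand): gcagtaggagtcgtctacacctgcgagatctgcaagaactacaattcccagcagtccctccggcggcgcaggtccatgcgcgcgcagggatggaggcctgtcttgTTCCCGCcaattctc
Rpa3 (chr6:8259142-8259261, minus strand): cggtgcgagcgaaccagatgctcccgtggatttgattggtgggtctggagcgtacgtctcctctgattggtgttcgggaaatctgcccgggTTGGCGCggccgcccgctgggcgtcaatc
Rrm1 (chr7:102441575-102441694, plus strand): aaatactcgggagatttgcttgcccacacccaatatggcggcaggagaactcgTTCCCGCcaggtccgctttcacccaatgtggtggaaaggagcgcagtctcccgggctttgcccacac
E2f8 (chr7:48881597-48881716, minus strand): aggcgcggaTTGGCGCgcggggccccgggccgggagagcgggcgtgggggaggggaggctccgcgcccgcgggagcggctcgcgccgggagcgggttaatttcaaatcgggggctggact
Chaf1a (chr17:56040296-56040415, plus strand): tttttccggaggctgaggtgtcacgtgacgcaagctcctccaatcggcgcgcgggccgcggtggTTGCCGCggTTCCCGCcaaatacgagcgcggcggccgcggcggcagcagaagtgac
Uhrf1 (chr17:56303217-56303336, plus strand): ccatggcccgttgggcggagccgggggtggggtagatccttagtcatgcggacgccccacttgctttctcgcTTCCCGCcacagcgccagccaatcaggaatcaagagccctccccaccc
The next stretches belong to well-known replication genes whose whole window held no match.
Mcm2 (chr6:88898781-88898900, minus strand): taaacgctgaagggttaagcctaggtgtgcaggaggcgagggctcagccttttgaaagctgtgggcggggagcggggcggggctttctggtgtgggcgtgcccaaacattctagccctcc
Pcna (chr2:132253181-132253300, minus strand): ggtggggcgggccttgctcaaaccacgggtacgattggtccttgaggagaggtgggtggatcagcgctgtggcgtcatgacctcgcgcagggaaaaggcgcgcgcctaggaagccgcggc
Tyms (chr5:30073626-30073745, minus strand): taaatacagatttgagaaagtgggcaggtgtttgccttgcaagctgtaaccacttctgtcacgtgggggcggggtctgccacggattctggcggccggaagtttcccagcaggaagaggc
In Mcm6 each capital run is a pair of matches on opposite strands that share most of their letters, and Chaf1a carries matches of different forms side by side. Both extremes of the fold change, E2f8 and Rpa3, hold the same form, TTGGCGC.

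Over the 52 member windows, 61.5% held an E2F core match, against 38.1% of 84 windows of other genes of the same pathways, 15.7% of 14096 windows of tested genes and 9.57% of all 32851 promoters of that length. At least 2 matches stood in 26.9% of member windows and in 2.09% of those of tested genes. The CCAAT box, searched as CCAAT on both strands, was present in 61.5% of member windows, 36.9% of those of other pathway genes, 37.6% of those of tested genes and 37.4% of all promoters, and 21 members held both motifs. The CHR element, a cell cycle motif linked to genes of G2 and mitosis, was searched as TTTGAA or the variant TTCGAA and stood in 19.2% of member windows, 19.0% of those of other pathway genes, 14.3% of those of tested genes and 19.2% of all promoters. Median GC content was 61.3% in member windows and 60.0% in those of tested genes. Among roles, the match was most frequent in chromatin copying (4 of 4 genes), single-strand binding and joining (4 of 5) and origin licensing (7 of 9), and least in helicase activation (1 of 3) and nucleotide synthesis (2 of 5). The 29 members with a match had a median log2 fold change of 2.57 (0.70 to 4.01) and the 14 without one a median of 2.42 (1.18 to 3.20), so the ranges overlapped over most of their length. A match describes letters and not a bound factor.

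**Figure D1:**
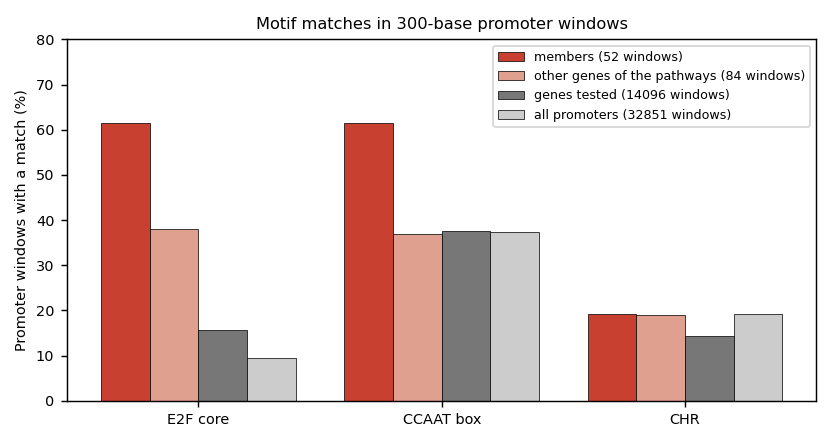
Percent of promoter windows of 300 bases (y axis) that hold each of 3 motifs (x axis) in members, other genes of the same pathways, tested genes and all promoters. The E2F core stood in 61.5% of member windows and 15.7% of those of tested genes, while the CHR element was at 19.2% and 14.3%, and at 19.2% of all promoters.

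Dexamethasone libraries held more transcript of every member. All 51 members were higher in each of the 3 dexamethasone libraries than in any control library, a separation seen in this direction for 38.4% of the 17442 genes tested and in the opposite one for 36.4%. A gene was called when limma's adjusted p was under 0.05 and the log2 fold change at least 1 in size. By that rule 50 of 51 members were called higher and 0 lower, beside 11.7% of tested genes called higher and 10.6% called lower, 22.3% in all, and edgeR and DESeq2 on recovered reads gave the same member counts. Since these counts rest on the contrast that chose the list, nothing is read from them. The median log2 fold change of the members was 2.54, with a range of 0.70 to 4.01, and that of all tested genes was 0.00. Together the 51 genes took 0.145%, 0.145% and 0.150% of the normalized counts of the control libraries and 0.705%, 0.698% and 0.694% of those of the dexamethasone libraries. The mean share was 0.147% ± 0.0026 (SD, n = 3) in controls and 0.699% ± 0.00562 (SD, n = 3) with dexamethasone, 4.76-fold higher.

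**Figure D2:**
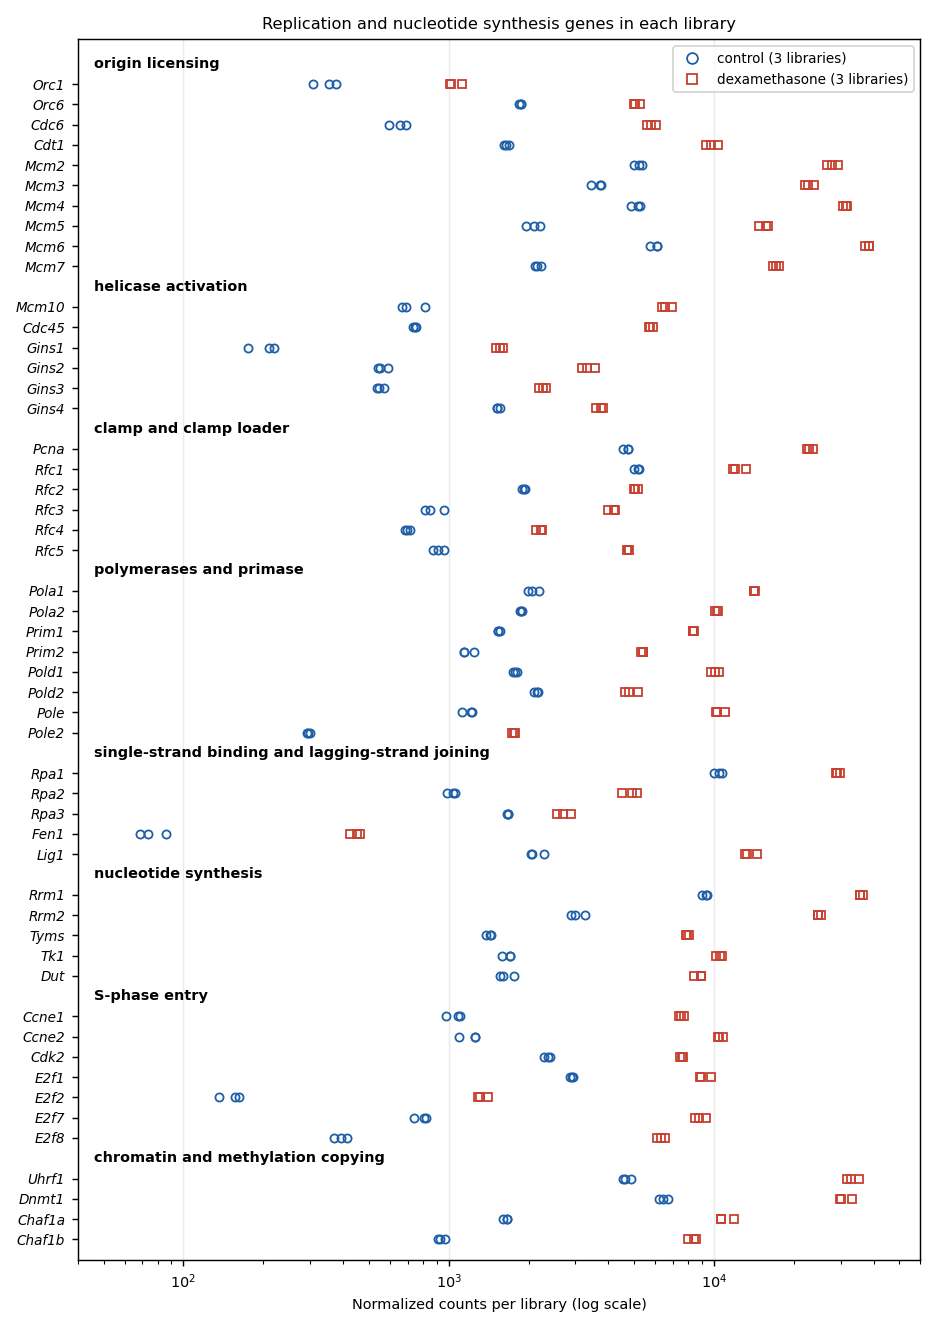
Normalized counts of each of the 51 members (log x axis) in the 3 control libraries (blue circles) and the 3 dexamethasone libraries (red squares), grouped by role (y axis). The groups do not overlap for any member, and the gap is narrowest for Rpa3 and widest for E2f8.

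Origin licensing genes, which mark where replication can start, had a median log2 fold change of 2.64 over 10 members (1.45 to 3.17), and all 10 were called higher. Cdc6, the ATPase that recruits the helicase to origins, had the largest difference of the role. It measured 594, 657 and 688 normalized counts in controls and 6034, 5578 and 5783 with dexamethasone, 8.97-fold higher (log2 3.17 ± 0.0517, SE). Mcm6, a helicase subunit, had the highest mean normalized count of the role, at 5723, 6120 and 6108 in controls and 38442, 36976 and 38324 with dexamethasone (6.34-fold, log2 2.66 ± 0.0364). Mcm4, its neighbour in the ring, went from 4858, 5265 and 5150 to 31697, 30714 and 31337 (6.14-fold, log2 2.62 ± 0.0365). The helicase subunits moved within a narrow band, Mcm2 at 2.43, Mcm3 at 2.65, Mcm5 at 2.89 and Mcm7 at 2.99, and the loading factor Cdt1 was at 2.57. Members of the origin recognition complex were at the lower end. Orc6 measured 1878, 1869 and 1844 in controls against 5004, 5051 and 5241 with dexamethasone (2.74-fold, log2 1.45 ± 0.0392), and Orc1, the subunit known to be regulated through the cell cycle, differed by 1.61.

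Helicase activation genes had a median of 2.76 over 6 members (1.28 to 3.20), all called higher. Mcm10, which helps the loaded helicase to unwind, measured 691, 664 and 814 in controls and 6920, 6547 and 6364 with dexamethasone (9.14-fold, log2 3.20 ± 0.0574). Cdc45, the partner that completes the active helicase, went from 736, 747 and 755 to 5909, 5670 and 5731 (7.74-fold, log2 2.95 ± 0.0427). For both genes every treated library lay far above the controls. The GINS subunits were uneven. Gins4 measured 1527, 1522 and 1559 in controls and 3745, 3597 and 3819 with dexamethasone, only 2.42-fold higher (log2 1.28 ± 0.0419), whereas Gins3 was at 2.04, Gins2 at 2.58 and Gins1 at 2.95.

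The sliding clamp and its loader had the lowest role median, 1.94 over 6 members (1.26 to 2.38), all called higher. Pcna, the ring that tethers polymerases, measured 4522, 4760 and 4737 in controls and 22783, 22475 and 23674 with dexamethasone (4.92-fold, log2 2.30 ± 0.0358). Rfc1, the large subunit of the loader, had the smallest difference of the role, from 4997, 5221 and 5183 to 13262, 11974 and 11816 (2.41-fold, log2 1.26 ± 0.0409). Rfc5, a small subunit, had the largest, from 872, 957 and 909 to 4763, 4754 and 4696 (5.19-fold, log2 2.38 ± 0.0448). Between them lay Rfc2 at 1.41, Rfc4 at 1.65 and Rfc3 at 2.24.

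Polymerase and primase genes had a median of 2.48 over 8 members (1.18 to 3.14), all called higher. Pole, the catalytic subunit of the leading-strand polymerase epsilon, measured 1126, 1219 and 1222 in controls and 11020, 10296 and 10199 with dexamethasone (8.84-fold, log2 3.14 ± 0.0431). Pola1, the catalytic subunit of the priming polymerase alpha, went from 2066, 1987 and 2184 to 14133, 14337 and 14107 (6.83-fold, log2 2.77 ± 0.0386), and its partner Pola2 from 1862, 1894 and 1867 to 10371, 10066 and 10239 (5.46-fold, log2 2.45 ± 0.0363). Primase subunits were close to them, Prim1 at 2.44 and Prim2 at 2.19. The delta polymerase, which copies the lagging strand, was split, with the catalytic Pold1 at 2.50 and the accessory Pold2 at the bottom of the role. Pold2 measured 2090, 2169 and 2156 in controls and 5168, 4601 and 4766 with dexamethasone (2.27-fold, log2 1.18 ± 0.0436). Pole2, the second epsilon subunit, was at 2.57.

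Among genes that coat single strands or join Okazaki fragments, 4 of 5 members were called higher and the median was 2.24 (0.70 to 2.68). Rpa3, the smallest subunit of the single-strand binding trimer, was the one member that did not reach the fold cut-off. It measured 1679, 1669 and 1666 in controls and 2565, 2702 and 2890 with dexamethasone, 1.63-fold higher (log2 0.70 ± 0.0464), and the groups still did not overlap. Rpa1, the large subunit, went from 9984, 10729 and 10403 to 29890, 28816 and 29015 (2.82-fold, log2 1.50 ± 0.0361), and Rpa2 differed by 2.24. Lig1, the ligase that seals the fragments, had the largest difference, from 2058, 2291 and 2045 to 14528, 13112 and 13279 (6.40-fold, log2 2.68 ± 0.0455). Fen1, the flap nuclease, was at 2.54 but on few counts, at 86.3, 68.5 and 73.8 in controls and 463, 425 and 452 with dexamethasone. In GENCODE M21, 84.2% of its exon bases are overlapped by genes on the other strand and 26.3% of its 75-base stretches occur in no other gene.

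Nucleotide synthesis genes had a median of 2.49 over 5 members (1.96 to 3.03), all called higher. Rrm2, the small subunit that limits ribonucleotide reductase in S phase, measured 2901, 3000 and 3266 in controls and 25342, 24591 and 24677 with dexamethasone (8.14-fold, log2 3.03 ± 0.0400). Rrm1, the large subunit, went from 9025, 9417 and 9312 to 36497, 35642 and 35478 (3.88-fold, log2 1.96 ± 0.0345), a smaller difference from higher counts. The ratio of Rrm2 to Rrm1 counts was therefore 0.321, 0.319 and 0.351 in controls and 0.694, 0.690 and 0.696 with dexamethasone. These counts are not divided by length. Per kilobase of exon, Rrm1 was the lower subunit in controls, at 840 against 1103 for Rrm2. That order rests on a union of annotated exons of 11012 bases for Rrm1 and 2771 for Rrm2. A long rarely used exon in such a union lowers the value. Thymidylate synthase Tyms was at 2.49, thymidine kinase Tk1 at 2.65 and the dUTPase Dut at 2.42.

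Genes of S-phase entry had the highest role median, 3.13 over 7 members (1.66 to 4.01), all called higher. E2f8, an E2F family repressor that is itself switched on in S phase, was the extreme of the whole list. It measured 370, 394 and 412 in controls and 6545, 6336 and 6120 with dexamethasone, 16.2-fold higher (log2 4.01 ± 0.0502). E2f7, its close relative, differed by 3.49 (11.2-fold). The activator E2f1 differed far less, from 2867, 2905 and 2938 to 9757, 8859 and 8964 (3.17-fold, log2 1.66 ± 0.0397), and E2f2 differed by 3.13. Counts of E2f8 per count of E2f1 were 0.129, 0.136 and 0.140 in controls and 0.671, 0.715 and 0.683 with dexamethasone. Ccne2, a cyclin E gene, went from 1091, 1256 and 1254 to 10480, 10335 and 10842 (8.79-fold, log2 3.14 ± 0.0472), while Ccne1 was at 2.84 and their kinase Cdk2 at 1.68.

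Chromatin and methylation copying genes had a median of 2.79 over 4 members (2.27 to 3.15), all called higher. Uhrf1, which brings the maintenance methyltransferase to newly copied DNA, measured 4549, 4632 and 4879 in controls and 35082, 31657 and 32990 with dexamethasone (7.09-fold, log2 2.83 ± 0.0396). Dnmt1, that methyltransferase, went from 6183, 6408 and 6691 to 33156, 30043 and 29959 (4.83-fold, log2 2.27 ± 0.0410). Chaf1b, a subunit of the CAF-1 histone chaperone that deposits histones behind the fork, had the largest difference, from 931, 967 and 908 to 8573, 7998 and 8381 (8.89-fold, log2 3.15 ± 0.0422). Its partner Chaf1a was at 2.75.

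**Figure D3:**
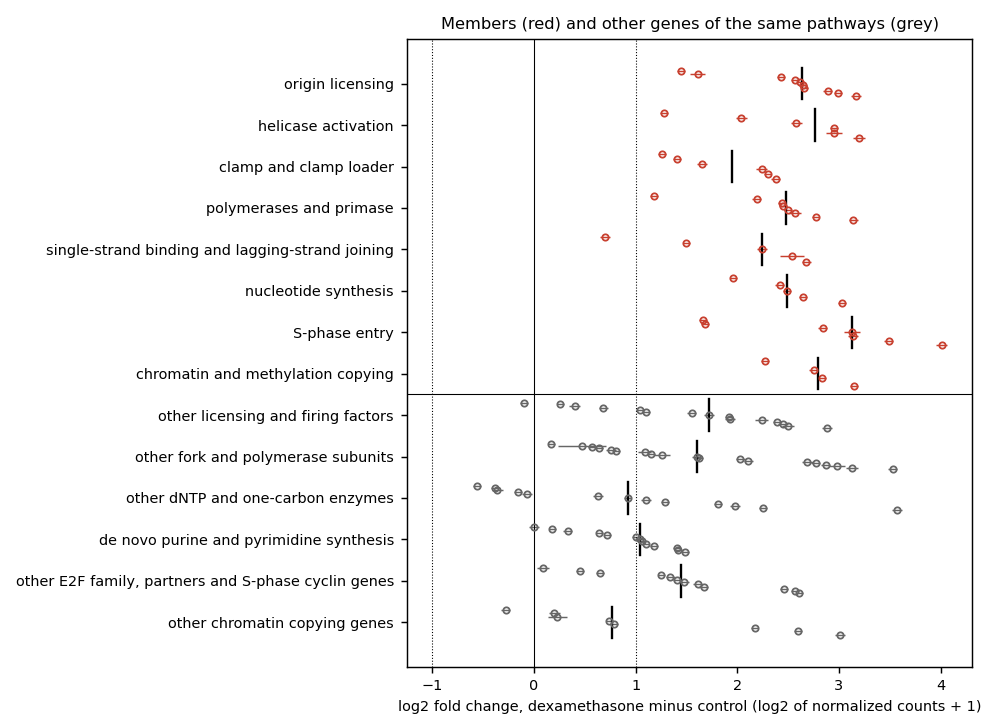
The log2 fold change (dexamethasone minus control, log2 of normalized counts plus 1) on the x axis for each member (red) by role and for other genes of the same pathways (grey) by list, with standard errors as bars and list medians as black lines. Role medians lie between 1.94 and 3.13, and dotted lines mark the cut-off of 1 in each direction.

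Levels within a complex were compared per kilobase of exon, using the union of annotated exons in GENCODE M21, so a long rarely used exon lowers the value. The union includes bases overlapped by genes on the other strand, 67.3% of those of Gins2 and 52.5% of those of Chaf1a. How such overlaps alter the ratios of GINS and CAF-1 was not tested. In the Mcm2 to Mcm7 ring, control levels ran from 488 (Mcm7) to 1419 (Mcm4) normalized counts per kilobase, a ratio of 2.91, and dexamethasone levels from 3877 to 8707 for the same genes, a ratio of 2.25. The order at both ends was kept there. GINS was far less even in controls, from 133 for Gins1 to 1138 for Gins4 (ratio 8.54), and closer with dexamethasone, from 818 for Gins2 to 2758 for Gins4 (3.37). The clamp loader narrowed in the same manner, from a ratio of 4.36 between Rfc1 and Rfc5 to one of 2.54 between Rfc1 and Rfc2, and the RPA trimer from 5.41 to 3.23 between Rpa1 and Rpa2. Gins4 and Rfc1, the most abundant subunits of their complexes in controls, had the smallest fold changes there. Per kilobase this did not hold in the other complexes compared. Their most abundant subunits in controls were Mcm4, Prim1, Rpa1, Rrm2 and Chaf1b, and their smallest fold changes were those of Mcm2, Prim2, Rpa3, Rrm1 and Chaf1a. Ribonucleotide reductase widened per kilobase, with a ratio of Rrm2 to Rrm1 of 1.31 in controls and 2.75 with dexamethasone. That direction rests on the exon lengths used, 11012 bases for Rrm1 and 2771 for Rrm2. By counts not divided by length, Rrm1 was the higher subunit in both groups and the subunits came closer. The ratio of Rrm2 to Rrm1 counts was 0.319 to 0.351 in controls and 0.690 to 0.696 with dexamethasone. Polymerase alpha-primase had ratios of 2.01 and 2.39, and CAF-1 of 1.08 and 1.43.

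**Figure D4:**
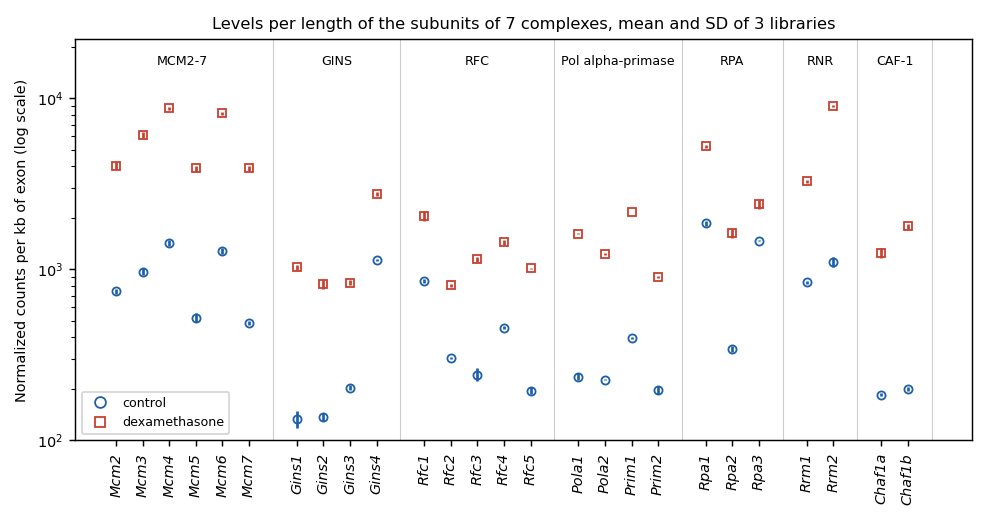
Mean normalized counts per kilobase of exon (log y axis) of the subunits of 7 complexes (x axis) in control (blue circles) and dexamethasone (red squares) libraries, with the SD of 3 libraries as bars. GINS subunits span a ratio of 8.54 in controls and 3.37 with dexamethasone. The lowest with dexamethasone is Gins2, of whose exon bases 67.3% are overlapped by a gene on the other strand.

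Replicates of a member lay close together. The coefficient of variation had a median of 3.77% over the members in controls, from 0.405% for Rpa3 to 12% for Fen1, and of 3.33% with dexamethasone, from 0.565% for Prim1 to 6.65% for Rpa2. Over all tested genes the medians were 4.49% and 5.46%. Replicate 1 of the controls was the lowest of its group for 34 of 51 members and for 47.3% of tested genes. Replicate 1 of the dexamethasone group was the highest of its group for 34 members and for 47.8% of tested genes, and replicate 2 was the lowest for 31 members and for 44.7% of tested genes.

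Some counts share sequence with neighbours. The libraries were stranded, but the strand setting of the counting is not given in the sources used here. Whether reads of the other strand were counted at these loci is therefore not known. Genes on the other strand cover 67.3% of the exon bases of Gins2 (Gse1), 52.5% of those of Chaf1a (Ubxn6) and 17.4% of those of Ccne2 (Ints8). The log2 fold changes of those neighbours were -0.12 for Gse1, -0.43 for Ubxn6, 0.17 for Ints8 and, at Fen1, -0.06 for Tmem258. How the overlaps alter the member values was not tested. For Pcna, 86.2% of 75-base stretches are found in no other gene, the rest being shared with Pcna-ps2. Mcm7 shares 3.89% of its exon bases with Mir25 and Mir93 on its own strand.

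Beside the members, 80 further genes of the same processes were followed, all of them tested. Of these, 49 rose past the cut-off and 0 fell past it, beside the 11.7% and 10.6% of tested genes, and their median log2 fold change was 1.21. By limma's adjusted p alone, and likewise by an unadjusted p under 0.05, 70 rose and 6 fell, beside 37.2% and 35.2% of tested genes by the adjusted p. With the fold cut-off, edgeR and DESeq2 on recovered reads also called 49 higher and 0 lower. These lists were also put together with results of these libraries known. Because the members were chosen on this contrast, their higher median cannot show whether they stand apart within their pathways. The 80 genes took 0.354% to 0.362% of control libraries and 0.756% to 0.766% of dexamethasone libraries.

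**Figure D5:**
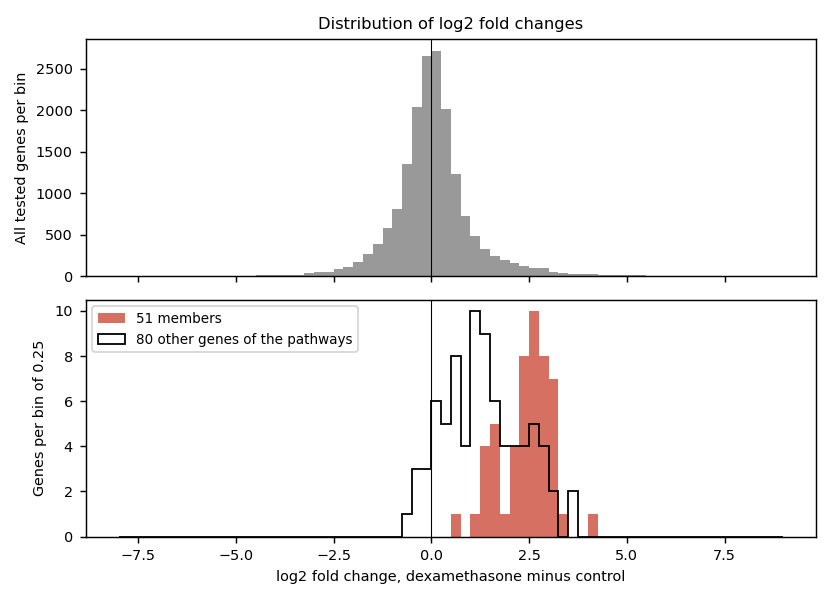
Number of genes (y axis) per bin of 0.25 of the log2 fold change, dexamethasone minus control (x axis), for all 17442 tested genes (top) and for the 51 members and the 80 other genes of the same pathways (bottom). All tested genes centre on 0.00, the members on 2.54 and the other genes on 1.21.

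Other licensing and firing factors numbered 15 (median 1.72). Past the cut-off 11 rose and 0 fell, beside 11.7% and 10.6% of tested genes. Ticrr, which helps load Cdc45, rose most in that list (2.88, limma adjusted p = 4.53e-25), and Topbp1, the scaffold it works with, rose by 2.39 (adjusted p = 1.2e-25). The remaining subunits of the origin recognition complex were much flatter than the helicase. Orc3 measured 6779, 6730 and 6965 in controls and 7981, 8332 and 8200 with dexamethasone (0.26, adjusted p = 4.13e-07). Orc4 was lower, from 4418, 4747 and 4710 to 4287, 4448 and 4208, a difference of -0.10 (adjusted p = 0.0268) with overlapping groups. Orc2 (1.10) and Orc5 (0.68), named after their values were seen, complete the complex. The licensing inhibitor geminin, Gmnn, also picked out afterwards, rose by 2.50 (adjusted p = 4.3e-22) and kept pace with its target: counts of Cdt1 per count of Gmnn were 4.92, 4.74 and 4.63 in controls and 5.16, 4.76 and 5.09 with dexamethasone, which overlap.

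Fork and polymerase genes outside the members numbered 19 (median 1.60). Of these, 13 rose past the cut-off and 0 fell past it, beside 11.7% and 10.6% of tested genes. Clspn, a fork protection and checkpoint adaptor, measured 1041, 1115 and 1115 in controls and 13521, 12165 and 12042 with dexamethasone (3.53, adjusted p = 4.65e-27). Ssrp1, a subunit of the FACT histone chaperone, rose by 1.15 (adjusted p = 1.09e-18). Top1, a topoisomerase with a general role in transcription, rose by 0.17 (adjusted p = 0.000274), a direction that turned to -0.0338 under quantile normalization. The small epsilon subunits Pole3 and Pole4, named after their values were seen, rose by 0.64 and 0.57 beside 3.14 for Pole and 2.57 for Pole2. They are histone-fold proteins, and Pole3 is also a subunit of a chromatin remodeller.

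Of 13 deoxynucleotide and one-carbon enzymes, 6 rose past the cut-off and 0 fell past it, beside 11.7% and 10.6% of tested genes. The list median was 0.92. By the adjusted p alone 8 rose and 4 fell, beside 37.2% and 35.2% of tested genes. Shmt2, which feeds the mitochondrial one-carbon pool, rose by 1.81 (adjusted p = 7.86e-24). Samhd1, which breaks down deoxynucleotides, fell from 10512, 10913 and 10597 to 7519, 6974 and 7303 (-0.56, adjusted p = 8.66e-13). Rrm2b, the ribonucleotide reductase subunit used outside S phase, fell from 1899, 1950 and 1955 to 1509, 1442 and 1515 (-0.38, adjusted p = 6.16e-08). Dguok, a mitochondrial deoxyguanosine kinase, fell by 0.36 on the log2 scale (adjusted p = 1.33e-06) and Cmpk1 by 0.16 (adjusted p = 0.00156), and Tk2, the mitochondrial thymidine kinase, differed by -0.07 (adjusted p = 0.201). These last 4 genes were named after their values were seen. Set against the members, the ratio of Rrm2 to Rrm2b was 1.53, 1.54 and 1.67 in controls and 16.8, 17.1 and 16.3 with dexamethasone. Counts of Tk1 per count of Tk2 were 1.28, 1.14 and 1.23 in controls and 7.81, 7.86 and 8.47 with dexamethasone.

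De novo purine and pyrimidine synthesis serves RNA as well as DNA. Of 13 genes, 7 rose past the cut-off and 0 fell past it, beside 11.7% and 10.6% of tested genes. The list median was 1.04 (0.00 to 1.49). Umps, which completes uridine monophosphate, rose by 1.49 (adjusted p = 1.36e-21), and Cad, which opens the pyrimidine pathway, by 1.41 (adjusted p = 1.8e-20). Paics, a purine enzyme, measured 11485, 12268 and 11566 in controls and 23314, 23380 and 23763 with dexamethasone and fell just short of the cut-off at 1.00 (adjusted p = 3.21e-18). Impdh1 differed by 0.00 (adjusted p = 0.993).

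Other E2F genes, their partners and S-phase cyclin genes numbered 12 (median 1.44). There 9 rose past the cut-off and 0 fell past it, beside 11.7% and 10.6% of tested genes. Ccna2, cyclin A, went from 2253, 2320 and 2405 to 14050, 14485 and 14139 (2.61, adjusted p = 2.49e-26). Tfdp1, the dimer partner of E2F factors, rose by 1.25 (adjusted p = 1.22e-20). E2f5 differed by 0.09 (adjusted p = 0.174). Counts of E2f1 per count of E2f3 ran from 0.866 to 0.880 in controls and from 1.96 to 2.10 with dexamethasone.

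Of 8 other chromatin copying genes, 3 rose past the cut-off and 0 fell past it, beside 11.7% and 10.6% of tested genes (median 0.76). By the adjusted p alone 7 rose and 1 fell, beside 37.2% and 35.2% of tested genes. Asf1b, the histone chaperone form of dividing cells, rose by 3.01 (adjusted p = 1.77e-25), and its relative Asf1a, named after its value was seen, differed by 0.20 (adjusted p = 0.00357). Rbbp4 rose by 0.79 (adjusted p = 1.34e-16) and Rbbp7 by 0.74 (adjusted p = 1.05e-15), both histone binding proteins found in several complexes. Dnmt3a, a de novo methyltransferase, fell from 3262, 3325 and 3424 to 2907, 2716 and 2643 (-0.28, adjusted p = 2.87e-06). Counts of Dnmt1 per count of Dnmt3a were 1.90, 1.93 and 1.95 in controls and 11.4, 11.1 and 11.3 with dexamethasone.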

How the data were processed

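RNA of 6 libraries (3 control, 3 dexamethasone) had been made into stranded mRNA libraries. Per the paper's methods and the submitters' processing notes, the authors aligned reads to GRCm39 with STAR 2.7.10a, counted reads per gene and normalized them with DESeq2 1.36.0. The annotation release and strand setting are not given in the sources used here. The deposited values are a signal, gene counts divided by a size factor per library. Whole reads could be recovered for 100% of values (tolerance 0.001 read), which gave each library's total of 72596611 to 89910728 reads. A library at 0 reads for a gene is compatible with as many as 3, a floor for counting error only.

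Gene symbols, exon lengths and overlaps came from GENCODE M21, and 28087 of 29616 genes had a symbol. No coordinate of that annotation was joined to the counts. The 17442 genes whose mean normalized count reached 10 were compared between groups as log2(normalized counts + 1) with limma 3.58.1 (trend, R 4.3.3), with Benjamini-Hochberg adjustment over all of them. Calls required both an adjusted p below 0.05 and a difference of 1 or more in size on the log2 scale. On this scale the change of low genes is understated. On the recovered reads, edgeR 4.0.16 (quasi-likelihood) called 3944 genes and DESeq2 1.42.0 called 3870, beside 3894 by limma. Simulated libraries of 17250 genes, 194 of them changed, were tested first. There limma and edgeR recovered 99% of the 194 and DESeq2 96.9%, with 0 unchanged genes called by any of the 3. These rates describe those libraries only. How they vary with the size of the differences put in was not tested. Nor were they tested with as many changed genes as the 3894 called by limma here.

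The members and all lists were chosen with earlier results of these data known. Values per library are given for the 2 most abundant members of each role, those with the largest and smallest fold change of each role and any member not called, and for other lists the same kinds of gene are named, except for 1 result that is not reported here. Replicates of a group differed by more than sampling noise (chi-square per degree of freedom 3.56 to 28.9). Libraries with the same number did not deviate together (correlations -0.0999, -0.105 and -0.0199), so numbers were not taken as pairs. Alternatives covered the pseudocount, the filter, the scaling, the variance model, the test, the fold cut-off, a replicate block and leaving out each library.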

Additional observations from a re-analysis of the deposited data

How the results depend on the processing

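The 51 members kept their direction and side of the cut-off in all 816 values under the alternatives with a fold cut-off, so 50 were called each time, and 51 without that cut-off. Their median of 2.54 became 2.50 with a pseudocount of 5, 2.43 with all libraries at the same total, 2.40 under quantile normalization and 2.50 to 2.58 when 1 library was left out, while the smallest member value stayed between 0.55 and 0.74. Scaling to the same total moved the median of all tested genes to -0.11 and quantile normalization to -0.07, and the share of calls that were higher went from 52.3% to 45.1% at the same total and to 62.2% with a mean of at least 100. Of all tested genes 3894 were called, 2170 with that filter (1350 higher, 820 lower) and 12645 without a fold cut-off. Of the 80 other genes 49 were called, 42 at the same total, 41 under quantile normalization, 48 to 50 with a library left out and 76 without a fold cut-off. With the replicate number as a block 3897 genes were called, 3891 of them shared, and no call on a member or on the other named genes changed. Impdh1, at 0.00, went to -0.11 at the same total, -0.18 under quantile normalization, -0.0231 with edgeR and -0.006 with DESeq2, and lay between -0.0487 and 0.0591 with a library left out. E2f5 went to -0.0195 at the same total and Top1 to -0.0338 under quantile normalization. Ssrp1 missed the cut-off under quantile normalization (0.98), and Paics passed it without control replicate 2 (1.03), dexamethasone replicate 1 (1.00) or dexamethasone replicate 2 (1.00). The causes were not tested. Fen1 had the fewest control reads of the members, 70 to 94, followed by E2f2 with 149 to 185. Whether depth limits the values of any member was not tested.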
